A study of Mus musculus with 16 samples.

Results

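The Schlafen gene cluster on mouse chromosome 11 was described by the H3K27ac peaks within 50 kb of a start site of Slfn1, Slfn2, Slfn3, Slfn4, Slfn5, Slfn8 or Slfn9. These are 7 of 21951 protein-coding genes in the annotation. Their 13 start sites and the flanks spanned chr11:82902102-83241330 of mm10, a window of 339 kb. Overlapping peaks of the 4 deposited lists were merged into regions, and 33 of 55218 merged regions lay in the window. In the window lay 24 peaks of the Control list, which holds 43533, and 25 each of the IFNγ list (40708), the PJ34 list (44090) and the IFNγ+PJ34 list (42960).

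ChIP-seq was used to map H3K27ac, a histone acetylation that marks promoters and enhancers in use, in bone marrow-derived macrophages (BMDMs), primary cells grown from the marrow of C57Bl6 mice aged 8 to 12 weeks. Control cells were untreated, IFNγ cells received 100 ng/mL interferon gamma for 1 h, PJ34 cells received 20 µM of PJ34, which inhibits PARP enzymes, and IFNγ+PJ34 cells received PJ34 for 1 h before the same interferon treatment. Each condition had 2 ChIP replicates and 2 input replicates, and the authors made 1 peak list per condition from both. No value below therefore has a replicate error, and differences between lists are descriptions without a test.

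Schlafen genes encode a family of proteins that share an N-terminal Schlafen core domain and lie side by side on the chromosome. Many of them are induced by interferons in immune cells and have been tied to growth arrest, immune cell quiescence and the restriction of viruses. Slfn1 and Slfn2 encode short proteins, Slfn3 and Slfn4 encode intermediate ones, and Slfn5, Slfn8 and Slfn9 encode long ones with an added helicase-like domain. Interferon-responsive genes often carry short DNA elements near their promoters, among them the GAS element and the interferon-stimulated response element (ISRE). PARP enzymes attach ADP-ribose to proteins, and PARP-1 is the most abundant of them in the nucleus.

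The promoters of the long members held an ISRE core, GAAA followed by any 2 bases and GAAA on either strand, and those of the short and intermediate members did not. In RefSeq promoters of the same build, which hold 300 bases from upstream to just past a start site, the ISRE core was found in those of Slfn5, Slfn8 and Slfn9 and in 3.44% of 32851 promoters genome-wide. GAS, TTCNNNGAA on either strand, was found in 0 of 7 members and in 8.3% of all promoters. The stretches below show where the core lies in each long member, with the match in capitals and the strand of the gene. Relative to the start site, the match began at position -155 in Slfn5, at -48 for the nearest start site of Slfn8 and at -45 in Slfn9.
Slfn5, chr11:82951902-82952001, plus strand: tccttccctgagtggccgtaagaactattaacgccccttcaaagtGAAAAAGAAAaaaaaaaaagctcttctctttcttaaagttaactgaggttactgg
Slfn8, chr11:83020804-83020903, minus strand: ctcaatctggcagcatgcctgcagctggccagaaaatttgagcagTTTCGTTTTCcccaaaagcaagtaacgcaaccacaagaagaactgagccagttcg
Slfn9, chr11:82991821-82991920, minus strand: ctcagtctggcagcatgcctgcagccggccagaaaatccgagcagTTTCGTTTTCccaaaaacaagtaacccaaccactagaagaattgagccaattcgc
The Slfn8 and Slfn9 promoters were alike beyond the match, with 252 identical bases or 80.8% of their alignment, against 46.5% to 53.0% for the other pairs of members. All 3 matches lay inside an H3K27ac peak in each of the 4 lists. A match is a description of the letters and does not show that a factor binds there.

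The promoters of the short and intermediate members shared another string of 9 bases, ACTTCCTGG, which was noticed after the sequences had been read. Relative to the start site it began at position -74 in Slfn1, -55 in Slfn2, -42 in Slfn3 and -73 in Slfn4. It was picked as the longest string found in all 4 of these promoters, so its presence in them was fixed by the search. Of all 32851 RefSeq promoters, 277 or 0.843% held it on either strand, and those of Slfn5, Slfn8 and Slfn9 did not. Its opposite strand holds GGAA, the core of sites for ETS factors such as PU.1. The stretches are shown on the plus strand, with the shared string in capitals.
Slfn1, chr11:83116700-83116799: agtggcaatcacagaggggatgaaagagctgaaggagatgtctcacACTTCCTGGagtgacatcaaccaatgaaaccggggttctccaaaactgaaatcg
Slfn2, chr11:83065011-83065110: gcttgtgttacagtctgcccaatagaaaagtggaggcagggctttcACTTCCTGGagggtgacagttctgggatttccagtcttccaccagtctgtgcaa
Slfn3, chr11:83191242-83191341: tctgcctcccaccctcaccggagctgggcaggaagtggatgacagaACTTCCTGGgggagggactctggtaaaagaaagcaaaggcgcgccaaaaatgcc
Slfn4, chr11:83175067-83175166: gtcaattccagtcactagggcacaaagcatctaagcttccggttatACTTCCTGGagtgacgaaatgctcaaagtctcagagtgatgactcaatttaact
At Slfn2 and Slfn3 the string lay under a peak in every list, and at Slfn1 in every list but PJ34, whose peak began just downstream. No list held a peak over it at Slfn4.

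Acetylation along the cluster was concentrated in a few strong blocks at the Slfn5, Slfn8 and Slfn2 promoters and around the pseudogene Slfn10-ps. The shared promoter of the neighbours AI662270 and Gm11427 was about as strong in Control, IFNγ and PJ34, at percentiles of 98.6 to 99.5, and stood at 85.0 in IFNγ+PJ34. The peaks covered 12.9% of the window in Control, 12.6% in IFNγ, 13.6% with PJ34 alone and 13.6% with IFNγ+PJ34. Each peak was placed by the percentile of its score within its own list, where 0 is the weakest and 100 the strongest peak, because the lists differ in number and depth is not given in them. The median percentile of the cluster's peaks was 37.7 in Control (95% interval 19.9 to 84.1), 57.4 in IFNγ (41.2 to 94.3), 46.0 with PJ34 alone (25.3 to 87.2) and 67.8 with IFNγ+PJ34 (50.2 to 95.6). The 4 intervals overlap. Intervals of medians and shares hold counting error only, and neighbouring peaks are not independent.

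**Figure D1:**
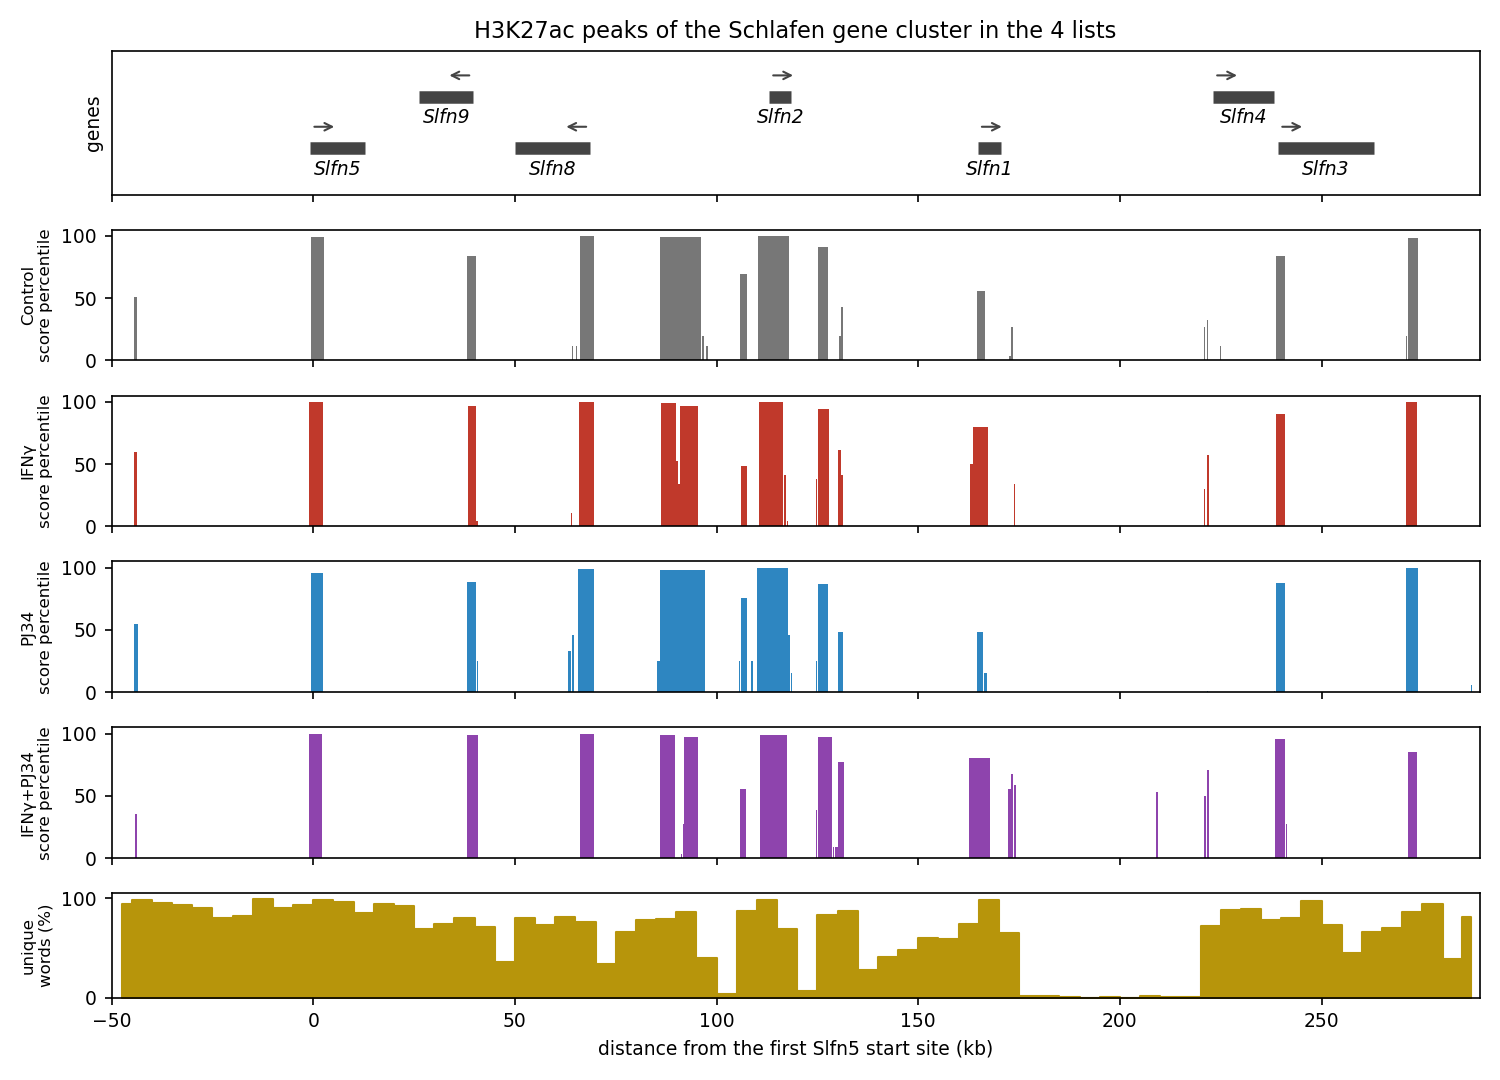
H3K27ac peaks across the Schlafen gene cluster, with genes and their direction in the top row, 1 row per list below, and the share of 32-base words that occur once in the genome in 5 kb bins at the bottom. The x axis is the distance in kb from the first Slfn5 start site, and bar height is the score percentile. The blocks at Slfn5, Slfn8 and Slfn2 reach the top in every list, while the Slfn1 block is taller and wider in both lists with IFNγ.

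More of the cluster's peaks ranked high in both lists with IFNγ. Peaks at or above percentile 90 numbered 6 in Control, 9 in IFNγ, 5 with PJ34 alone and 8 with IFNγ+PJ34, and those under percentile 50 numbered 13, 10, 15 and 7. Part of the difference at the top came from splitting of the Slfn10-ps block. It gave peaks at 99.2 and 96.6 in IFNγ and at 99.0 and 97.4 in IFNγ+PJ34. In Control and PJ34 only its best peak, at 99.5 and 98.2, passed percentile 90. Fold enrichment over local background ranged from 2.05 to 120 in Control, 2.87 to 88.8 in IFNγ, 2.58 to 85.1 in PJ34 and 2.75 to 130 in IFNγ+PJ34. The median fold was 4.89, 6.73, 5.13 and 11.7 in the same order, beside 6.12, 5.51, 5.26 and 6.32 over all peaks of each list. Of the 33 regions, 13 were found in all 4 lists, which is 39.4% (exact Clopper-Pearson 95% interval 22.9 to 57.9) against 38.9% of all merged regions. These 13 had a median length of 3037 bp and a best percentile of 59.3 to 100, whereas the 20 regions found in fewer lists had a median length of 408 bp and a best percentile of 0.855 to 67.8.

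A peak within 1 kb of a start site, called a promoter peak here, was present at all 7 members in Control and at 6 in each of the other lists. Of all protein-coding genes, 50.6% had one in Control, 49.2% in IFNγ, 50.5% with PJ34 alone and 49.7% with IFNγ+PJ34. The member without one outside Control was Slfn4, and 6 members had a promoter peak in every list. In bulk chromatin, more cells with the mark and more mark per cell cannot be told apart.

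The short members stood far apart from each other. Slfn2 (ENSMUSG00000072620.3, chr11:83065112-83070678, plus strand), which keeps T cells and other immune cells quiescent, had a promoter peak that ranked 41st of 43533 in Control, 30th of 40708 in IFNγ, 154th of 44090 with PJ34 alone and 410th of 42960 with IFNγ+PJ34. The score percentile of that peak was 99.9, 99.9, 99.6 and 99.0. Its fold enrichment was 78.8, 88.8, 52.1 and 48.8, higher in both lists without PJ34 than in both with it. The Slfn2 peak was also broad, at 7558 bp in Control, 5965 in IFNγ, 7795 with PJ34 alone and 6766 with IFNγ+PJ34, and so covered most of the gene.

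Slfn1 (ENSMUSG00000078763.2, chr11:83116849-83122670, plus strand), the founding member and an inhibitor of thymocyte growth, had the weakest of the promoter peaks found in every list. Its promoter peak ranked 18931st in Control, 8192nd in IFNγ, 22202nd with PJ34 alone and 8246th with IFNγ+PJ34. The score percentile was 55.9 in Control, 79.8 in IFNγ, 48.6 with PJ34 alone and 80.7 with IFNγ+PJ34. The fold enrichment was 6.82, 14.7, 5.14 and 15 in that order. Both lists with IFNγ were thus above both lists without it on either measure. The difference in percentile was -7.31 points for PJ34 against Control and 0.937 points for IFNγ+PJ34 against IFNγ. The acetylated stretch also differed in length, with 2066 bp of the region chr11:83114627-83119837 covered in Control, 4194 in IFNγ, 2053 with PJ34 alone and 5211 with IFNγ+PJ34. Of its bases, 1770 were covered in both lists with IFNγ and in neither without it, 0 the other way round, and 1695 in all 4 lists.

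Most of the added stretch at Slfn1 lay upstream of the gene. The rest lay inside the gene, where the IFNγ peak ended at 83119354 and the PJ34 peak at 83119102. In IFNγ a separate peak, chr11:83115003-83115614, stood at percentile 50.4 with a fold of 5.72, and Control and PJ34 had no peak there. The IFNγ+PJ34 list joined the same sequence to the promoter in a single peak. An ISRE match, TTTCTTTTTC, began 1.37 kb before the start site and lay wholly inside the IFNγ peak. A GAS match, TTCCTGGAA, began 1.24 kb before the start site and had 2 of its 9 bases inside that peak, at its downstream edge. Each is the only match of its kind in the region, and both lay inside the joined IFNγ+PJ34 peak. The stretch that holds them is shown on the plus strand with the ISRE match first and the GAS match second in capitals.
Slfn1 upstream, chr11:83115445-83115651: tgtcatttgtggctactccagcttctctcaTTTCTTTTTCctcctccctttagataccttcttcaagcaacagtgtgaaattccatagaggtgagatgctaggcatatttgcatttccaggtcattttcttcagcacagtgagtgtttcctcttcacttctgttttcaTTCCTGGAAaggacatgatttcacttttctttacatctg

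**Figure D2:**
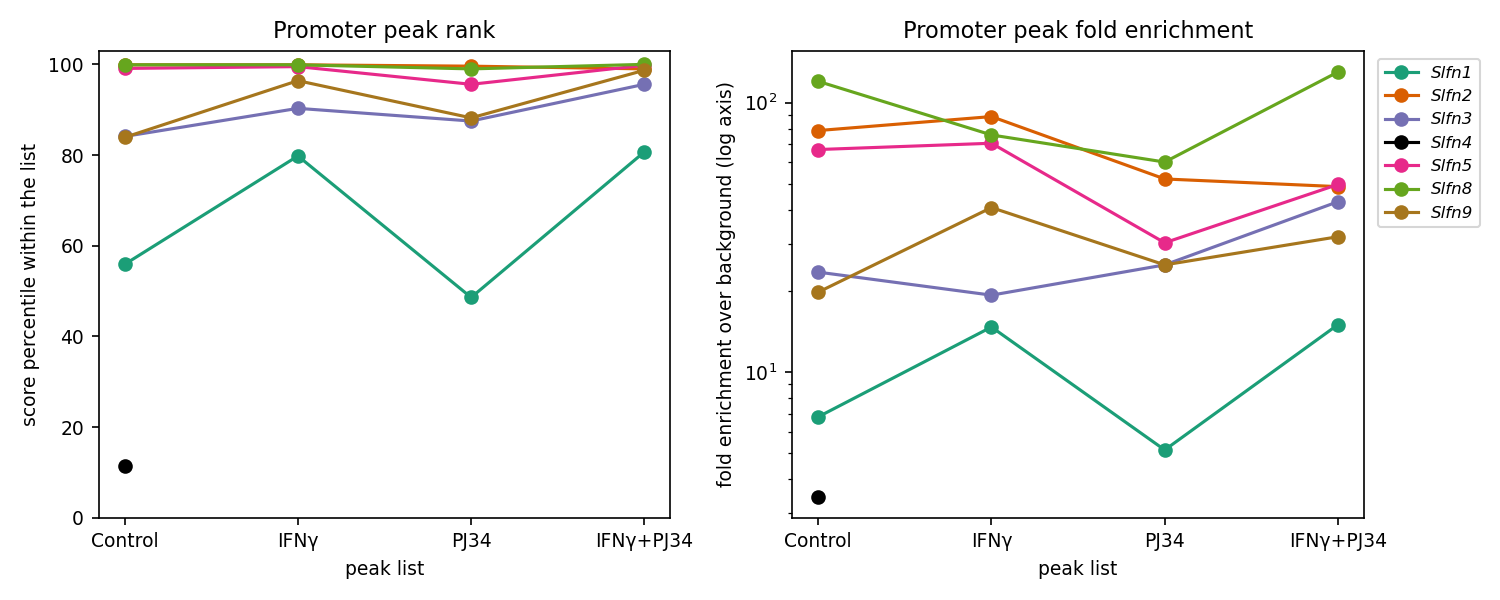
Promoter peaks of the 7 Schlafen genes in the 4 lists, with the score percentile on the left and the fold enrichment over local background, on a log axis, on the right. Each point is the highest-scoring peak within 1 kb of a start site, and lines join the lists of 1 gene. Slfn1 moves between 48.6 and 80.7 on the left axis, while Slfn2, Slfn5 and Slfn8 stay above 95 and Slfn4 has a point in Control only.

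The intermediate members are neighbours at the high-coordinate end of the cluster. Slfn3 (ENSMUSG00000018986.10, chr11:83191330-83215154, plus strand), known for its part in the differentiation of intestinal epithelium, had a promoter peak at percentile 84.1 in Control, 90.3 in IFNγ, 87.5 with PJ34 alone and 95.6 with IFNγ+PJ34. Its fold was 23.5, 19.3, 25 and 42.9. The percentile was thus higher with IFNγ in both pairs of lists, by 6.25 points without PJ34 and by 8.13 points with it. By fold enrichment the first of these shifts was only 0.411 points.

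Slfn4 (ENSMUSG00000000204.16, chr11:83175186-83190216, plus strand), a gene of myeloid cells that is induced during macrophage activation, had no strong promoter peak. Its only one was in Control, at percentile 11.5 with a fold of 3.45, 0.605 kb downstream of the nearest start site. The closest region found in all 4 lists, chr11:83173595-83174156, lay 1.39 kb upstream of the gene, just beyond the promoter limit. It stood at percentile 32.5 in Control, 57.4 in IFNγ, 0.855 with PJ34 alone and 71.0 with IFNγ+PJ34, with folds of 4.68, 7.23, 2.58 and 13.5. Both lists with IFNγ were above both without it, and PJ34 was lowest. A second peak, 2.15 kb upstream, was missing from PJ34 and stood at percentile 26.9 in Control, 29.9 in IFNγ and 50.2 in IFNγ+PJ34. With promoters drawn at 2.5 kb instead of 1 kb, all 7 members had a promoter peak in every list.

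The long members lie at the low-coordinate end. Slfn8 (ENSMUSG00000035208.16, chr11:83002158-83020810, minus strand) had a promoter peak that ranked 39th in Control, 42nd in IFNγ, 422nd with PJ34 alone and 2nd with IFNγ+PJ34. The score percentile was 99.9, 99.9, 99.0 and 100, and the fold was 120, 75.9, 60.2 and 130. Slfn8 was ahead of Slfn2 in Control and IFNγ+PJ34 and behind it in the other lists, and both stood near the top throughout.

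Slfn5 (ENSMUSG00000054404.13, chr11:82951349-82964840, plus strand), a nuclear member, had a promoter peak at percentile 99.1 in Control, 99.5 in IFNγ, 95.6 with PJ34 alone and 99.8 with IFNγ+PJ34. Its fold was 67.0, 70.7, 30.2 and 49.7, and PJ34 without IFNγ had the lowest value on both measures. The difference from PJ34 to IFNγ+PJ34 was 4.23 points of percentile and that from Control to IFNγ was 0.371 points. A peak that already stands near the top of a list can gain few points. Shifts are therefore read below beside those of regions found in both lists that began in the same band of 10 percentile points. Within a band, regions that began nearer the limit of the scale could move less. Regions lost from the second list are not counted.

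Slfn9 (ENSMUSG00000069793.12, chr11:82978390-82991830, minus strand) had a promoter peak at percentile 83.9 in Control, 96.4 in IFNγ, 88.2 with PJ34 alone and 98.7 with IFNγ+PJ34. The fold was 19.8, 40.8, 25 and 31.8. Both lists with IFNγ were above both lists without it on either measure. The region, chr11:82990109-82993070, held a further small IFNγ peak at percentile 4.54 on its upstream side that was absent from Control and present in the other 2 lists. Slfn8 and Slfn9 are near copies, and their regions each held 3 ISRE matches with the same letters in the same order, GAAACTGAAA, TTTCCTTTTC and GAAAACGAAA. The distances between successive matches were 636 and 711 bp at Slfn9 and 634 and 723 bp at Slfn8.

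Between the genes, the broadest block of the window was chr11:83038085-83049186 at the promoter of Slfn10-ps, a Schlafen pseudogene. Its best peak stood at percentile 99.5 in Control, 99.2 in IFNγ, 98.2 with PJ34 alone and 99.0 with IFNγ+PJ34. The block was divided differently, into 2 peaks in Control, 4 in IFNγ, 1 with PJ34 alone and 4 with IFNγ+PJ34, and covered 10691, 9065, 11061 and 7945 bp. Of its bases, 1501 were covered in both lists without IFNγ and in neither with it, 0 the other way round, and 7861 in all 4 lists. Over the whole window those numbers were 2849, 3088 and 33924 bp, so the stretches found with IFNγ alone and without it were of similar total length.

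Downstream of Slfn2, a region 12.7 kb from its start site stood at percentile 90.8 in Control, 94.3 in IFNγ, 87.2 with PJ34 alone and 97.5 with IFNγ+PJ34. A region 18.1 kb from the start site stood at 42.8, 61.3, 48.6 and 76.9. Another, 6.26 kb upstream of Slfn2, went the other way, with 69.4 in Control, 48.7 in IFNγ, 75.4 with PJ34 alone and 55.4 with IFNγ+PJ34 and folds of 12.7, 4.74, 13.4 and 6.77. The 2 downstream regions were higher in both lists with IFNγ and the upstream region was lower in both. The order of the upstream region rested on peak strength, because ranked by width its IFNγ value was 1.06 points above Control.

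To determine how IFNγ changed the ranks, the 14 regions found in both Control and IFNγ were compared. The median shift from Control to IFNγ was 3.24 points (95% interval -0.0135 to 18.5), against -2.31 over all 25925 such regions. Shifts of 10 points or more upward were seen for 4 of the 14 regions and downward for 1, where 14.9% of all regions moved up and 28.7% moved down by as much. The 4 were the region upstream of Slfn4 with 24.9 points, Slfn1 with 23.9, the region 18.1 kb downstream of Slfn2 with 18.5 and Slfn9 with 12.5. The 1 that ranked lower was the region upstream of Slfn2, with -20.7 points.

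Set beside regions that began at a like level in Control, the Slfn9 shift was the least common. Of 4211 regions that began between percentiles 80 and 90, 0.451% moved up by at least as much as Slfn9. Those that began nearest percentile 90 had too little room for such a rise. Slfn9 was also singled out for having the smallest share among the 14 regions. For Slfn1 the share was 3.08% of 2984 regions that began between 50 and 60. It was 12.4% of 2510 regions for the one downstream of Slfn2 and 13.6% of 1467 regions for the one upstream of Slfn4. The drop upstream of Slfn2 was matched by 25.9% of 3550 regions. By fold enrichment the Slfn9 and Slfn1 shifts were 15 and 25.3 points, and by width they were 1.92 and 12.7 points.

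To determine how the cluster responded to IFNγ in the presence of the inhibitor, the 14 regions found in both PJ34 and IFNγ+PJ34 were compared, from lists that share no sample with the Control and IFNγ lists. The median shift was 6.18 points (-14.4 to 28.3) against -2.61 over 24313 regions. Upward shifts of 10 points or more numbered 6 and downward ones 3, where 22.1% of all regions moved up and 30.9% moved down by as much. The largest was the region upstream of Slfn4 with 70.1 points, which began at percentile 0.855 in PJ34, followed by Slfn1 with 32.1 points and the region 18.1 kb downstream of Slfn2 with 28.3 points. The Slfn9 shift was 10.5 points by score and 5.36 points by fold. Of regions that began at a like level in PJ34, 8.86% of 1773 moved as much as Slfn1, 5.66% of 707 as much as the region upstream of Slfn4 and 6.54% of 4144 as much as Slfn9.

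**Figure D3:**
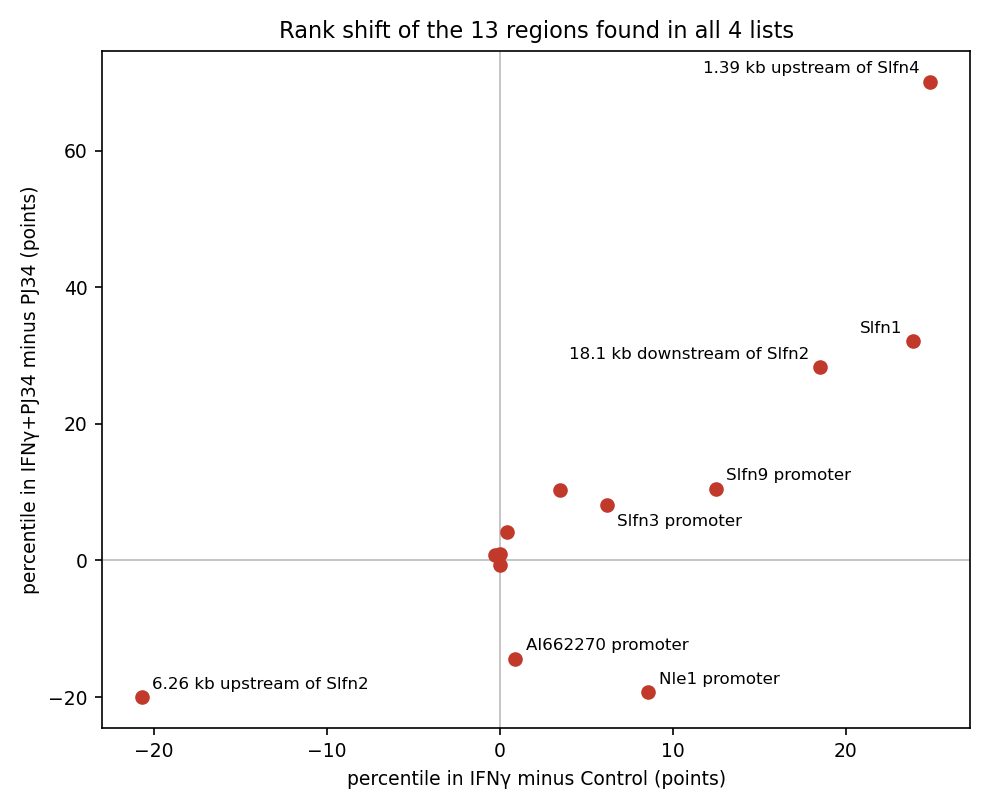
Rank shift of the 13 regions found in all 4 lists, with IFNγ minus Control on the x axis and IFNγ+PJ34 minus PJ34 on the y axis, both in points of score percentile. Each dot is a region, and the 5 unlabelled dots lie at shifts under 5 points on the x axis. Slfn1, Slfn9, Slfn3 and the regions upstream of Slfn4 and 18.1 kb downstream of Slfn2 are positive on both axes, and the region 6.26 kb upstream of Slfn2 is negative on both.

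At the edges of the window, 2 promoter regions of other genes ranked lowest in IFNγ+PJ34. The Slfn2 promoter peak did too, but by little, at percentile 99.0 against 99.6 to 99.9 in the other lists. The shared promoter of AI662270 and Gm11427, 33.3 kb downstream of the Slfn3 start site, stood at percentile 98.6 in Control, 99.5 in IFNγ, 99.4 with PJ34 alone and 85.0 with IFNγ+PJ34, with a fold of 11.7 in the last against 49.0 to 85.1 in the others. Its difference of IFNγ+PJ34 from IFNγ was -14.5 points, and 3.86% of 3990 regions that began at a like level in IFNγ moved down by as much. The Nle1 promoter, 44.0 kb upstream of the Slfn5 start site, stood at 50.7, 59.3, 54.8 and 35.5, lowest again in IFNγ+PJ34. Its difference of IFNγ+PJ34 from IFNγ, -23.8 points, was matched by 15.9% of 2687 regions that began at a like level. Just outside the window, the Rad51d promoter, 11.4 to 11.5 kb beyond the low end, stood at 72.2, 63.8, 73.2 and 74.5, and a region at the promoter of Gm23444, 29.4 to 29.6 kb beyond the high end, stood between 94.4 and 95.4.

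The presence of peaks differed mainly among the weak ones. Of 25 IFNγ peaks, 5 had no overlapping Control peak, which is 20.0% (6.83 to 40.7) against 16.8% of all IFNγ peaks. These peaks, called IFNγ-gained here, lay at the Slfn9 promoter, in an intron of Slfn8, 11.8 kb downstream of the Slfn2 start site, upstream of Slfn1 and 9.22 kb downstream of the Slfn1 start site, at percentiles of 4.54 to 50.4. Of 24 Control peaks, 8 were absent from IFNγ, or 33.3% (15.6 to 55.3) against 31.7%, and their percentiles ran from 0.528 to 26.9. Both shares were close to those of the whole lists, and the unmatched peaks ranked at percentile 50.4 or below. Counting a peak within 1 kb as found left 1 IFNγ peak without a Control partner and 2 Control peaks without an IFNγ partner.

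Of the 5 IFNγ-gained peaks, 4 overlapped an IFNγ+PJ34 peak, or 80.0% (28.4 to 99.5) against 38.8% of all gained peaks, and 3 overlapped a PJ34 peak, or 60.0% (14.7 to 94.7) against 43.6%. Gained peaks were called anew within the higher-scoring 50% of each list, and 0 of 3 then had a PJ34 partner. Weak Control and PJ34 peaks are left out of those shorter lists, so the 3 are not a part of the 5. With a peak within 1 kb counted as found, the number was 0 of 1. Of the 5, the 2 found with IFNγ in both its lists and in neither other list lay upstream of Slfn1 and 9.22 kb downstream of its start site. At least 1 gained peak lay within 50 kb of 6 of the 7 members, against 26.0% of all protein-coding genes. Of the 5, only the peak upstream of Slfn1 was in the higher-scoring 50% of the IFNγ list. It lay within 50 kb of Slfn1 and Slfn2, where 5.07% of protein-coding genes had such a peak. Members share peaks, and the number was 3 at Slfn1, 3 at Slfn2, 2 at Slfn8, 2 at Slfn9, 1 at Slfn5, 1 at Slfn4 and 0 at Slfn3.

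The PJ34 list held several weak peaks that Control lacked. Of 25 PJ34 peaks, 8 had no Control partner, or 32% (14.9 to 53.5) against 19.5% of all PJ34 peaks, at percentiles of 0.855 to 32.8. All 8 were below the middle of the list, and with the higher-scoring 50% of each list the number was 0 of 10. In the 15 regions found in both lists the median shift was 0.786 points (-3.56 to 5.81) against 0.312 over all regions. Shifts of 10 points or more were upward in 2, where 18.5% of all regions moved up by as much, and downward in 1, where 20.1% moved down. The downward one was the region upstream of Slfn4, with -31.6 points, which took it to percentile 0.855 in PJ34. Of 1818 regions in both lists that began between percentiles 30 and 40, 1.6% fell by at least as much. Regions lost from PJ34 are left out of that share, and those that began nearest percentile 30 could not fall as far.

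With IFNγ in both lists, the difference with PJ34 in the percentile of the promoter peak was largest at Slfn3, with 5.27 points among the 6 members that had one. Of 3990 regions that began between percentiles 90 and 100 in IFNγ, 3.06% moved up by at least as much. Slfn3 began at 90.3, near the low end of that band, and regions near its top had too little room for such a rise. By fold enrichment the Slfn3 shift was 12.3 points. Of the other members, Slfn2, Slfn5, Slfn8 and Slfn9 began between percentiles 96.4 and 99.9 in IFNγ, where few points can be gained, so a small shift says little about them. Their folds did differ between these lists, from 75.9 to 130 at Slfn8, 88.8 to 48.8 at Slfn2, 70.7 to 49.7 at Slfn5 and 40.8 to 31.8 at Slfn9, without 1 direction. Of 25 IFNγ peaks, 3 were absent from IFNγ+PJ34, or 12.0% (2.55 to 31.2) against 24.1%, and of 25 IFNγ+PJ34 peaks, 6 were absent from IFNγ, or 24.0% (9.36 to 45.1) against 27.2%. The median shift from IFNγ to IFNγ+PJ34 in 16 regions was 1.6 points (-0.216 to 13.6), with 4 up by 10 points or more against 26.1% of all regions and 2 down against 21.4%. Slfn1 differed by 0.937 points between these lists. The covered bases shared by IFNγ and IFNγ+PJ34 made up 79.9% of the bases covered by either in the window, against 60.4% over all peaks, and those shared by PJ34 and IFNγ+PJ34 made up 64.4% against 55.5%. Sharing was about as high for Control and PJ34, with 79.0% against 66.9%, and for Control and IFNγ it was 75.7% against 61.5%.

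Against Control, the 16 regions shared with IFNγ+PJ34 had a median shift of 9.11 points (-0.868 to 34.1), where all 25915 such regions had -3.11. Up by 10 points or more were 8, where 19.1% of all regions moved up by as much, and down were 3, where 30.9% moved down. The 8 included Slfn1 with 24.8 points, Slfn9 with 14.7 and Slfn3 with 11.5, and the Slfn1 shift was matched by 6.98% of 3007 regions that began at a like level. These values share their Control list with the comparison of IFNγ and Control.

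The IFNγ+PJ34 list had 8 peaks that the PJ34 list lacked, or 32% (14.9 to 53.5) against 25.7%, and 5 of them lay in the interval between Slfn1 and Slfn4. Downstream of Slfn1, a peak 7.87 kb from the start site stood at percentile 55.4, one at 8.47 kb stood at 67.8 and one at 9.26 kb stood at 58.4. The first and second had weak partners in Control, at 3.96 and 26.9, and the third had a partner in IFNγ at 34.3. A peak 13.8 kb upstream of Slfn4 stood at 53.0 and was in no other list.

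**Figure D4:**
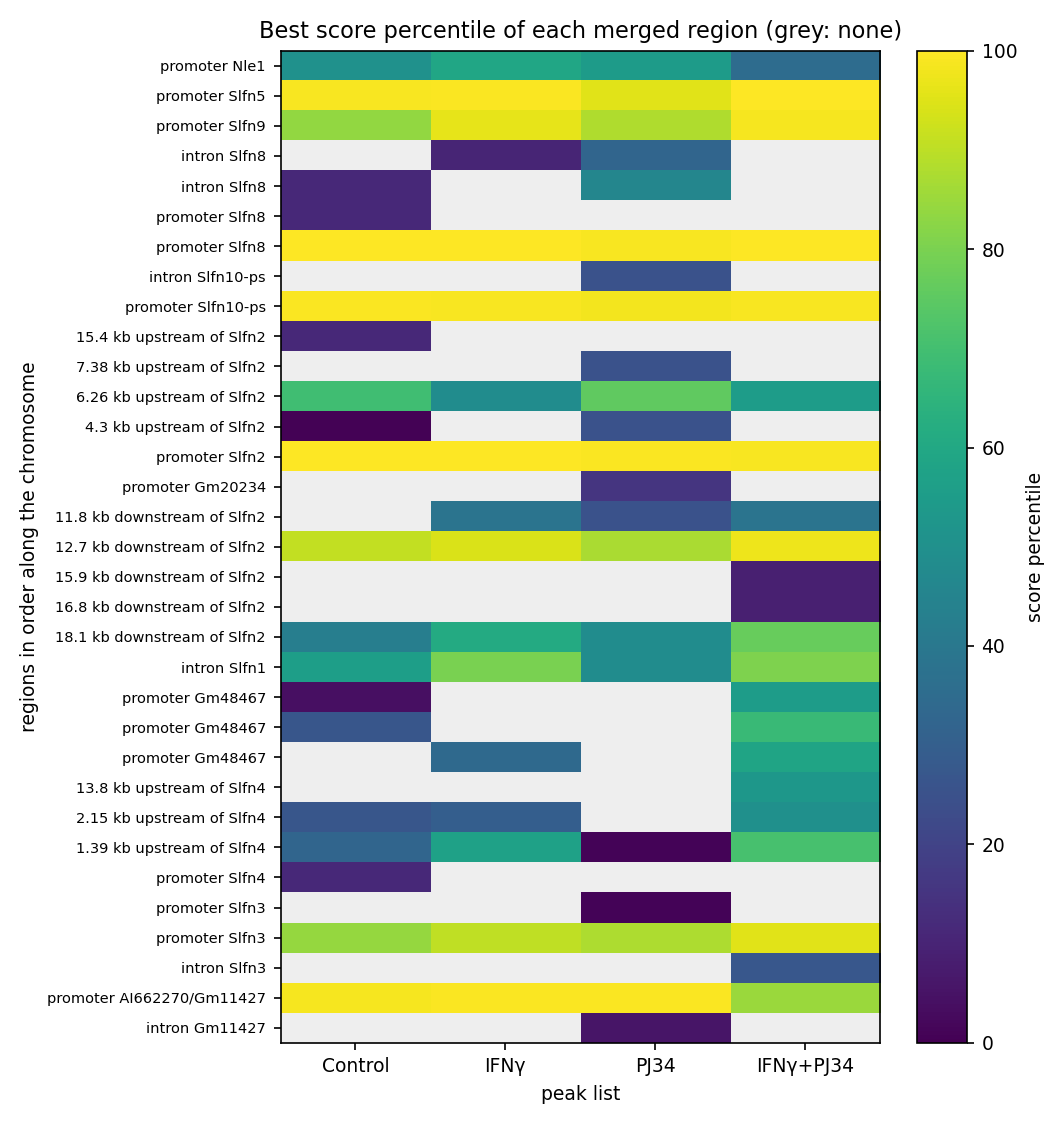
Best score percentile of each of the 33 merged regions in each list, in order along the chromosome, with grey where a list had no peak. Row names give the annotation at the strongest summit, or the distance to the nearest member's start site. The 13 rows without grey hold the strong blocks, and the rows between Slfn1 and Slfn4 are all filled in IFNγ+PJ34.

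Much of the sequence between Slfn1 and Slfn4 is repeated in the genome, and the authors kept uniquely mapped reads. Of the 32-base words in the 52.5 kb between these genes, 9.36% occurred once in the genome, against 64.4% over the whole window. For the peaks just named the share was 88.8% at 7.87 kb, 30.8% at 8.47 kb, 30.7% at 9.26 kb and 8.96% for the one 13.8 kb upstream of Slfn4. It was 100% within 1 kb of the Slfn1 start site, 97.6% at Slfn2, 82.7% at Slfn3, 93.7% to 97.6% at Slfn4, 95.3% to 99.7% at Slfn5, 77.6% to 80.0% at Slfn8 and 88.5% at Slfn9. The regions upstream of Slfn4 had lower shares, 62.6% at 1.39 kb and 34.4% at 2.15 kb. Among the 13 regions found in all 4 lists, 0 were under 50% unique, and among the 20 found in fewer lists, 7 were. The sequence around the Slfn4 start sites, which had no peak outside Control, was mostly unique by this measure. The part of mappability in presence and absence was not tested for any region, and the read length is not given in the sources used here.

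Over all 33 regions, 58.4 kb in sum, ISRE cores numbered 22 or 0.377 per kb, against 0.183 per kb of all IFNγ peaks. GAS matches numbered 16 or 0.274 per kb against 0.341, and GAANNNTTC, a control in which the ends of GAS are exchanged, numbered 15 or 0.257 per kb against 0.25. The ISRE cores fell in 9 regions and the GAS matches in 6. In the 300 bases around the strongest summit, 1 of the 33 regions or 3.03% held an ISRE core, against 4.44% of such windows over all IFNγ peaks. The Slfn8 and Slfn9 regions share sequence, so these matches are not independent.

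Other interferon-stimulated genes were compared by their promoter peaks, from a list of 30 genes that lie elsewhere in the genome or on other parts of chromosome 11. All 30 had a promoter peak in every list, against 49.2% to 50.6% of all protein-coding genes. An IFNγ-gained peak lay within 50 kb of 16 or 53.3%, against 26.0% of all protein-coding genes. Their promoters shifted by a median of 3.04 points from Control to IFNγ, with 5 of 30 or 16.7% up by 10 points or more and 0 down. Of all regions found in both lists, promoter or not, 14.9% moved up and 28.7% moved down by as much. From PJ34 to IFNγ+PJ34 the median was 8.86 points, with 12 up and 0 down, where 22.1% of all regions moved up and 30.9% down. From Control to PJ34 it was -3.56 points, with 1 up and 3 down, where 18.5% of all regions moved up and 20.1% down. Cxcl10, a chemokine for T cells, went from 50.7 in Control to 90.9 in IFNγ and from 70.3 in PJ34 to 95.8 in IFNγ+PJ34. Gbp2, a guanylate-binding GTPase, stood at 85.4, 97.2, 89.3 and 99.2, and Ifit1, an antiviral RNA-binding protein gene, stood at 80.0, 93.4, 78.6 and 94.4. For comparison, Slfn9 stood at 83.9, 96.4, 88.2 and 98.7.

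The cells carried the marks of macrophages in each list. All 8 macrophage markers examined, among them Csf1r and Adgre1, had a promoter peak in every list. T cell markers had one at 0 of 5 genes and fibroblast markers at 0 of 3. Of 4 B cell genes only Ms4a1 had one, and of 4 neutrophil genes only S100a8, in IFNγ and PJ34. Their part in the results was not tested.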

How the data were processed

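H3K27ac ChIP-seq was carried out in BMDMs under 4 conditions, with 2 ChIP and 2 input replicates each. Per the paper's methods, the authors used Bowtie for alignment to mm10, kept reads with a unique position, and used MACS at a lenient threshold on each replicate against its input, keeping peaks found in both. The 4 deposited lists give, for each peak, a score (whole numbers scaled by the authors), a fold enrichment ratio over local background, −log10 p-value and −log10 q-value. The input samples entered as background of the peak caller. Depth is not given in the lists.

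Start sites came from GENCODE M21 (basic set, GRCm38, the build of the peaks) and promoter sequences from RefSeq (GRCm38.p6), where all 7 members matched. Peaks overlapping by at least 1 bp were counted as shared. Percentiles used mid-ranks of score within a list. Shares have exact Clopper-Pearson intervals and medians order-statistic intervals at 95%, and neighbouring peaks are not independent. Motifs were searched on both strands. The functions were tested on simulated data. Python 3.11.15 with numpy 2.4.6, pandas 2.3.3, scipy 1.17.1 and biopython 1.88 was used. The members, gene lists and settings were chosen with earlier results of these data known. All members, every region of the window and any gene of the lists could be named.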

Additional observations from a re-analysis of the deposited data

Results flagged for a closer look

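Among the 33 merged regions, 3 were found in lists that cross the IFNγ contrast with and without PJ34 in opposite directions. Regions in Control and IFNγ+PJ34 only numbered 2, or 6.06% (0.743 to 20.2), against 3.64% of all merged regions. Regions in IFNγ and PJ34 only numbered 1, or 3.03% (0.0767 to 15.8), against 2.7%. Both shares were near those of all regions. The region in an intron of Slfn8, 1.92 kb from a start site, was present with IFNγ but not in Control (percentile 10.4 in IFNγ), and in the presence of PJ34 it was present without IFNγ only (32.8). The region 7.87 kb downstream of the Slfn1 start site was present in Control (3.96) and not in IFNγ, and in the presence of PJ34 it was found with IFNγ only (55.4). The region 8.47 kb downstream of Slfn1 had the same pattern, with 26.9 in Control and 67.8 in IFNγ+PJ34. The difference between the responses was not tested, since each condition has 1 list. In the order named, they are 1042, 758 and 626 bp long, and the last one has 30.8% unique 32-base words. The first ends at 83016236, and a separate Control peak begins just past it at 83016283.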

How the results depend on the processing

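Of 109 alternative values for 17 results, 99 stayed within their intervals or within 1.5 times the count, 10 moved and 0 reversed, over other overlap rules, list sizes, thresholds, gene distances, rankings and, added after seeing the data, start sites of all GENCODE transcripts. With a peak within 1 kb counted as found, the share of IFNγ peaks absent from Control was 4%, of Control peaks absent from IFNγ 8.33%, of IFNγ+PJ34 peaks absent from IFNγ 4% and of PJ34 peaks absent from Control 4%, and the 1 remaining gained peak had an IFNγ+PJ34 partner (100%) and no PJ34 partner (0%). With the higher-scoring 50% of each list, Control peaks absent from IFNγ made up 9.09% and PJ34 peaks absent from Control 0%. Of the 3 peaks called gained between these shorter lists, 100% had an IFNγ+PJ34 partner and 0% a PJ34 partner. No paired analysis was possible because each condition has 1 list made from both replicates, and no replicate could be left out for the same reason. Counts of a few peaks, no stated depth and repeated sequence limit what can be told apart.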
